A study of Mus musculus with 6 samples.

Results

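The genes described here encode mouse Fc receptors, the 2 adaptor chains that carry signals for such receptors, and monocyte genes that are often read beside them. They are Fcgr1, Fcgr3, Fcgr4, Fcgr2b, Fcer1g, Tyrobp, Csf1r, Cd14, Cd68 and Lyz2, 10 of the 19938 genes that could be named on the arrays. They were listed by symbol. For each, the probe set that the platform annotation ties to exactly 1 symbol was taken, and each had 1 such probe set, so the rule to keep the brightest by its mean over all arrays had nothing to choose. The genes were selected on the log2 folds of this same contrast, sanroque against wild type, since the list was drawn up with earlier results of these arrays in view. Their counts, folds and p-values are therefore a description and no independent evidence. Not all of the products sit at the cell surface: CD68 is found mainly in endosomes and lysosomes, and lysozyme is stored in granules and secreted.

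RNA was measured on Affymetrix mouse gene arrays, with 3 arrays of sanroque mice (Roquinsan/san, with both copies of the sanroque allele of Rc3h1, the gene of the RNA-binding protein Roquin) and 3 of wild-type mice (Roquin+/+). All mice were 10 weeks old and on the C57BL/6 background. Total RNA came from CD44-low CD8+ T cells, which a cell sorter took from spleen and lymph nodes, and the labels call the arrays of a genotype biological replicates. The allele is carried by the whole mouse, so every other cell type of a sanroque animal was mutant too.

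Fc gamma receptors bind the constant part of IgG antibodies and let myeloid cells take up or attack what the antibodies coat. The activating receptors need the FcR gamma chain, encoded by Fcer1g, whose cytoplasmic tail holds an ITAM, a tyrosine motif that recruits the kinase SYK once phosphorylated. FcgammaRIIB, encoded by Fcgr2b, carries an inhibitory motif (ITIM) in its own tail and recruits the phosphatase SHIP1. TYROBP, also called DAP12, is a second ITAM adaptor and serves receptors of myeloid and natural killer (NK) cells. These genes are typical of monocytes, macrophages and neutrophils, with Fcgr2b also found in B cells and Fcgr3 and Tyrobp in NK cells. Naive T cells are not known for them.

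The bases just upstream of the transcription start are shown for the 4 Fc gamma receptor genes because 3 of them share a short stretch there. Sequences and coordinates are RefSeq's, build GRCm38.p6, and each line gives the 100 bases before the annotated start, 5′ to 3′ on the gene's strand. Capitals mark GAGGAA or its reverse complement TTCCTC, letters of a form of the site bound by PU.1. PU.1 is a transcription factor of myeloid and B cells, encoded by Spi1. Other forms of its site were not searched.
Fcgr1, chr3:96293970-96294069, minus strand: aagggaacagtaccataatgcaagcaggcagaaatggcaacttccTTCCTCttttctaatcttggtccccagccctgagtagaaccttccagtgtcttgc
Fcgr3, chr1:171059404-171059503, minus strand: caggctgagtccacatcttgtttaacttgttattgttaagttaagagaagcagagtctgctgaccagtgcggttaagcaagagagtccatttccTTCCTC
Fcgr4, chr1:171018826-171018925, plus strand: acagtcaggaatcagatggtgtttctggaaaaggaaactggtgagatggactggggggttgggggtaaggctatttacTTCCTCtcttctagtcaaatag
Fcgr2b, chr1:170976072-170976171, minus strand: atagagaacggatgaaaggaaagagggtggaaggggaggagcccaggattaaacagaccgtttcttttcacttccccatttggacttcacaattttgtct

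The 3 activating receptor genes each held the letters once in these 100 bases, all as TTCCTC on the gene's own strand, and the inhibitory Fcgr2b did not. Searched on both strands, GAGGAA occurred in the same 100 bases in 9.82% of all 32851 promoter windows of the RefSeq table. Over 250 upstream bases it occurred in 4 of the 7 genes with a window (Fcgr1, Fcgr3, Fcgr4 and Cd68), against 23.3% of all windows. Fcer1g and Lyz2 held neither GAGGAA nor TTCCTC in 250 bases, and other forms of the PU.1 site were not searched. Among other letters searched on both strands, a core of the interferon-stimulated response element (GAAA, 2 bases of any kind, GAAA) was found in Fcgr4 alone (2.98% of windows). TTCNNNGAA, the interferon gamma activated site, was found in Fcgr1 alone (7.02%). TTGCNNAA, a C/EBP form, was in Fcgr3 and Cd68 (9.56%), and TATAAA was in none of the 7 (12.4%). A match is letters only. No binding was measured here.

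Of the 10 genes, 9 were higher in sanroque, 0 were lower and Cd14 did not pass (limma, with Benjamini-Hochberg adjustment across the whole table and a threshold of 0.05). Of all 19938 genes 5.77% were called, 3.26% higher and 2.51% lower. The same 9 genes had all 3 sanroque arrays above all 3 wild-type arrays, as did 9.46% of all genes. The median log2 fold, sanroque minus wild type, was 1.29 for the 10 genes and -0.03 for all genes. Of the 10, 7 were at least 2-fold higher (1.45% of all genes) and 3 at least 4-fold higher (0.346%). The folds ran from 8.71 for Lyz2 to 1.07 for Cd14. In sorted bulk samples, more cells of a type and more RNA per cell cannot be told apart.

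**Figure D1:**
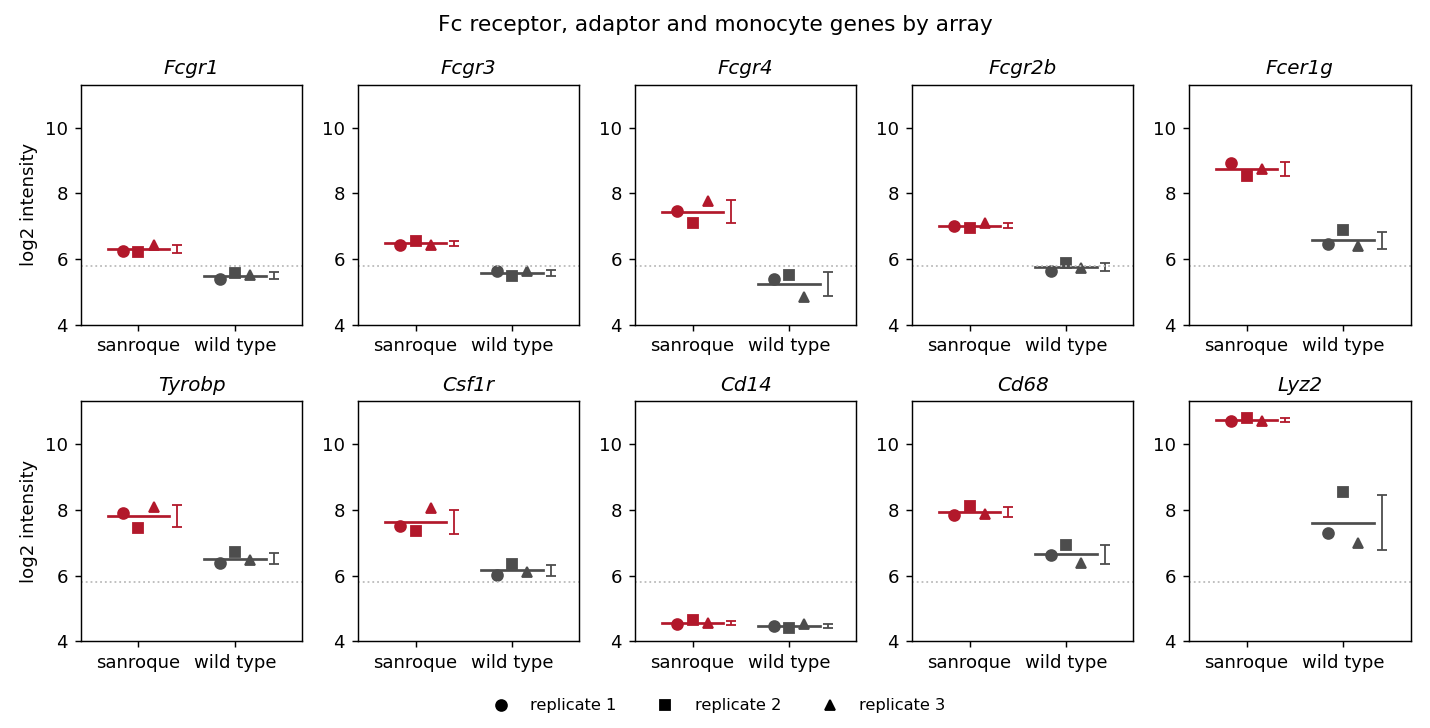
Log2 intensity of the 10 genes on each array, sanroque left and wild type right. Marker shapes are replicates, horizontal lines are means, error bars are SDs (n = 3 each), and the dotted line is the mean of the 6 array medians. All genes but Cd14 have 3 sanroque points above 3 wild-type points.

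A pair of arrays stood apart from the rest of their genotype. Xist, the RNA of the inactive X chromosome, read 11.20 on sanroque replicate 1 and between 4.02 and 4.17 on the 5 other arrays. The Y-linked genes Eif2s3y, Kdm5d and Uty were low on that array alone, with Eif2s3y at 4.26 there and 9.77 to 10.19 on the others. Sex-linked genes thus set this sanroque array apart from the 5 others, all 3 wild-type arrays included, and the labels give no sex. Wild type replicate 2 had the highest B cell list median of its genotype, 7.97 against 6.78 and 6.74. The sorted cells carried CD8 T cell transcripts on all arrays: Cd8a read 12.99 to 13.05 over all 6. Of 9 measured CD8 T cell genes Cd3d alone was called, with a log2 fold of -0.52 (limma adjusted p = 0.0263), and it did not pass without sanroque replicate 1 or 2 or wild type replicate 1 or 2. Of the 9, 5 had all sanroque arrays below all wild-type arrays, as did 13.2% of all genes. The summed intensity of the 9 was 38577 to 40240 in sanroque against 42649 to 43923 in wild type. Cd44, the gene of the sort marker, had a log2 fold of 1.40 (limma adjusted p = 0.00669). Rc3h1 read 10.15 ± 0.16 in sanroque and 10.00 ± 0.10 in wild type (SD, n = 3 each), which does not check a point mutation.

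Among the activating receptors Fcgr4 changed most. Fcgr4 (probe set 10351509) encodes FcgammaRIV, a receptor of monocytes, macrophages and neutrophils. Its log2 intensity was 7.45, 7.08 and 7.78 in sanroque replicates 1 to 3, against 5.39, 5.53 and 4.84 in wild type. The lowest sanroque value lay 1.56 above the highest wild-type value, and the wild-type arrays all read below their array's median. Its mean was 7.44 ± 0.35 in sanroque and 5.25 ± 0.37 in wild type (SD, n = 3 each), a 4.55-fold difference (log2 fold 2.18 ± 0.22 SE, limma adjusted p = 0.00423).

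Fcgr3 (10360040) encodes the low-affinity activating receptor CD16. It read 6.43, 6.56 and 6.43 in sanroque, against 5.64, 5.48 and 5.63 in wild type. Both groups were tight and did not overlap. This was a log2 fold of 0.89 ± 0.08 SE (1.85-fold, limma adjusted p = 0.00262). Fcgr1 (10500335) encodes CD64, the high-affinity receptor of monocytes and macrophages. It read 6.26, 6.21 and 6.43 in sanroque, against 5.38, 5.59 and 5.52 in wild type. The groups were separate by 0.62, and the log2 fold was 0.80 ± 0.09 SE (1.74-fold, limma adjusted p = 0.00527). For Fcgr1 and Fcgr3 all 3 wild-type values were below the array medians, which were 5.74 to 5.81 in wild type. At low intensity folds may understate a change, which was not tested here.

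The inhibitory receptor gene Fcgr2b (10360028) read 7.00, 6.94 and 7.10 in sanroque, against 5.65, 5.88 and 5.72 in wild type. No sanroque array came within 1.06 of a wild-type array. Fcgr2b had a log2 fold of 1.26 ± 0.08 SE (2.40-fold, limma adjusted p = 0.00169). B cells also express Fcgr2b, and the B cell genes were higher on the same arrays, by a list median of 1.66 on the log2 scale. Their part in the Fcgr2b result was not tested. Fcgr2b and Fcgr3 have closely related extracellular coding sequences, and whether their probes tell the transcripts apart was not tested either.

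Both adaptor genes were higher. Fcer1g (10360070) read 8.93, 8.51 and 8.75 in sanroque, against 6.47, 6.87 and 6.39 in wild type. Its groups were 1.64 apart at their nearest, and its mean was 8.73 ± 0.21 in sanroque and 6.58 ± 0.26 in wild type (SD, n = 3 each). The log2 fold was 2.16 ± 0.15 SE (4.46-fold, limma adjusted p = 0.00176).

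Tyrobp (10551883) read 7.89, 7.44 and 8.08 in sanroque, against 6.37, 6.71 and 6.46 in wild type. Replicate 2 was the lowest of the sanroque arrays and the highest of the wild-type ones, which left a gap of 0.73. The log2 fold was 1.29 ± 0.17 SE (2.45-fold, limma adjusted p = 0.0101). Without wild type replicate 1 Tyrobp did not pass (limma adjusted p = 0.0616), and without both arrays that stood apart it did not either (limma adjusted p = 0.0606), at log2 folds of 1.22 and 1.35.

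Of the monocyte receptor genes, Csf1r was higher and Cd14 was not called. Csf1r (10456071) encodes the receptor for the growth factor CSF1, on which monocytes and macrophages depend. It read 7.50, 7.37 and 8.06 in sanroque, against 6.03, 6.36 and 6.10 in wild type. Sanroque replicate 3 was the highest, and the groups were 1.01 apart. Its log2 fold was 1.48 ± 0.18 SE (2.79-fold, limma adjusted p = 0.0077), and without wild type replicate 1 it was 1.41 and just missed the threshold (limma adjusted p = 0.0514).

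Cd14 (10458382) encodes a coreceptor for bacterial lipopolysaccharide. It read 4.53, 4.63 and 4.54 in sanroque, against 4.47, 4.40 and 4.53 in wild type. All 6 values were below the array medians and close to the lower quartiles of the arrays, which lay between 4.33 and 4.40, and the groups overlapped. Its log2 fold was 0.10, with a 95% interval of -0.06 to 0.27 (limma adjusted p = 0.556). At this brightness a change in a rare transcript may not be detectable.

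The endolysosomal and granule genes rose as well. Cd68 (10387536) encodes a lysosomal glycoprotein of macrophages and other phagocytes. It read 7.83, 8.12 and 7.87 in sanroque, against 6.63, 6.94 and 6.38 in wild type, with no overlap. Cd68 thus had a log2 fold of 1.29 ± 0.15 SE (2.45-fold, limma adjusted p = 0.00588).

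Lyz2 (10372648), lysozyme of monocytes, macrophages and neutrophils, had the largest fold of the 10 and ranked 25 among all genes. It read 10.71, 10.79 and 10.71 in sanroque, against 7.30, 8.56 and 6.98 in wild type. The sanroque arrays lay within 0.08 of each other, while the wild-type arrays spanned 1.58, with replicate 2 the highest. The log2 fold was 3.12 ± 0.36 SE (8.71-fold, limma adjusted p = 0.00596), and 3.60 without wild type replicate 2. Its close paralog Lyz1, looked at after the values were seen, read 7.57, 8.62 and 8.08 in sanroque, against 6.66, 6.69 and 6.49 in wild type. Lyz1 was highest on sanroque replicate 2 and did not share the high value of wild type replicate 2.

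**Figure D2:**
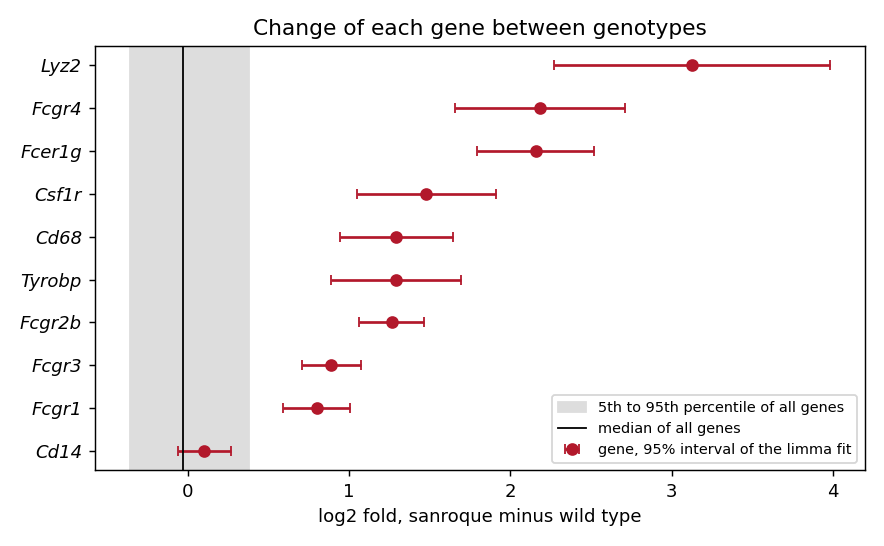
Log2 fold (sanroque minus wild type) of each gene with the 95% interval of the limma fit. The grey band is the 5th to 95th percentile of all 19938 genes (-0.36 to 0.38) and the line their median (-0.03). All genes except Cd14 lie right of the band, led by Lyz2 at 3.12.

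In the order of folds Lyz2 came first, then Fcgr4, Fcer1g, Csf1r, Cd68, Tyrobp, Fcgr2b, Fcgr3, Fcgr1 and Cd14. The folds of Fcgr4 and Fcer1g differed by less than either standard error, and so did those of Cd68, Tyrobp and Fcgr2b. To compare changes without setting one probe set's level against another's, log2 differences were taken on each array and compared between genotypes in 5 pairs. Each used an exact two-sided permutation test over 3 against 3 arrays, for which 0.1 is the smallest possible p, so no pair could pass.

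Fcgr4 minus Fcgr2b was 0.45, 0.15 and 0.68 in sanroque, against -0.25, -0.35 and -0.88 in wild type. The groups were separate, and the change was 0.92 (exact permutation p = 0.1, adjusted 0.125 over the 5 pairs). Fcgr1 minus Fcgr2b went the other way, at -0.74, -0.73 and -0.67 in sanroque, against -0.26, -0.29 and -0.20 in wild type, a change of -0.46 with the same p. Fcgr3 minus Fcgr2b changed by -0.37 and its groups overlapped (exact permutation p = 0.2, adjusted 0.2). Every sanroque array thus had a higher Fcgr4 to Fcgr2b difference and a lower Fcgr1 to Fcgr2b difference than any wild-type array. Fcgr1, Fcgr3 and Fcgr4 were below the array medians on all wild-type arrays, and Fcgr2b was on 2 of them. Folds may be understated there by unequal amounts, which was not tested. With array weights the Fcgr4 log2 fold was 1.91 and the Fcgr2b log2 fold was 1.32, which lie closer together than in the unweighted fit.

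Fcer1g minus Tyrobp was 1.04, 1.07 and 0.67 in sanroque, against 0.10, 0.16 and -0.07 in wild type. It changed by 0.86 with no overlap (exact permutation p = 0.1, adjusted 0.125). The Fcer1g minus Fcgr3 difference changed by 1.27, with 2.50, 1.95 and 2.33 in sanroque and 0.83, 1.39 and 0.76 in wild type (exact permutation p = 0.1, adjusted 0.125). Fcer1g was thus higher relative to the other adaptor, and to Fcgr3, on each sanroque array than on any wild-type array. Fcgr3 was below the array medians on all wild-type arrays and Fcer1g was above them. The Fcgr3 fold may be understated more than the Fcer1g fold, which was not tested.

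**Figure D3:**
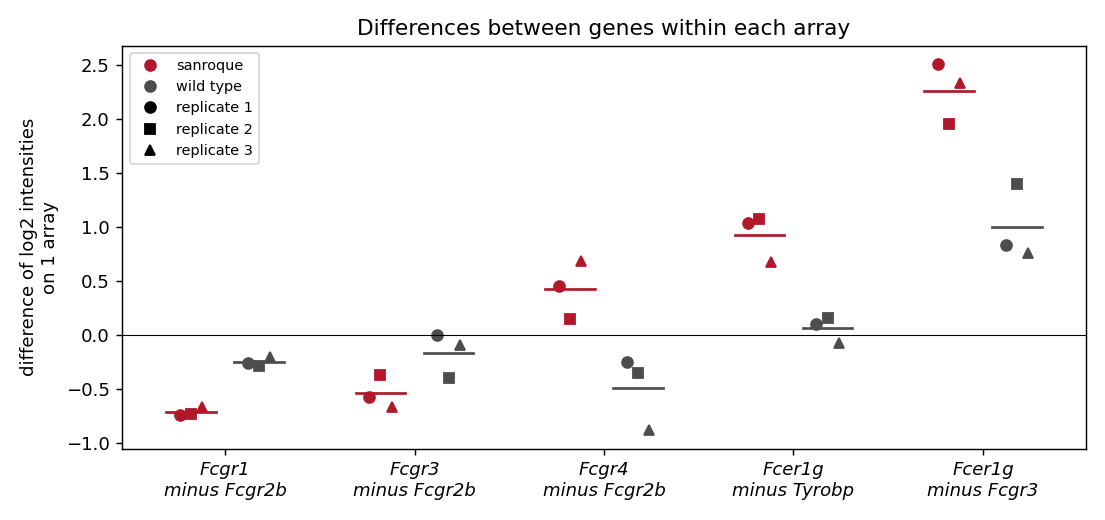
Difference of log2 intensities between 2 genes on the same array, for 5 pairs, sanroque left and wild type right of each pair. Shapes are replicates and lines are means (n = 3 each). The groups are separate in all pairs but Fcgr3 minus Fcgr2b.

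Fcgr2b, Fcgr4, Fcgr3 and Fcer1g are near each other on chromosome 1 in the RefSeq gene order, with 7 other measured genes among them. This run was looked at after the values were seen. Of the 17 other measured genes in it and in the 5 genes on each side, 1 was called higher and 0 lower. Of all 19938 genes 3.26% were called higher and 2.51% lower, so few calls would be found in any such run. The median log2 fold of the 17 was -0.03. The called gene was Atf6, a sensor of protein folding stress, at 1.18 ± 0.19 SE (limma adjusted p = 0.0173). Sdhc and Tomm40l, mitochondrial genes between Fcgr3 and Fcer1g, had log2 folds of -0.28 and -0.35 and were not called. Fcrla, a B cell Fc receptor-like gene next to Fcgr2b, had 0.96 and was not called.

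**Figure D4:**
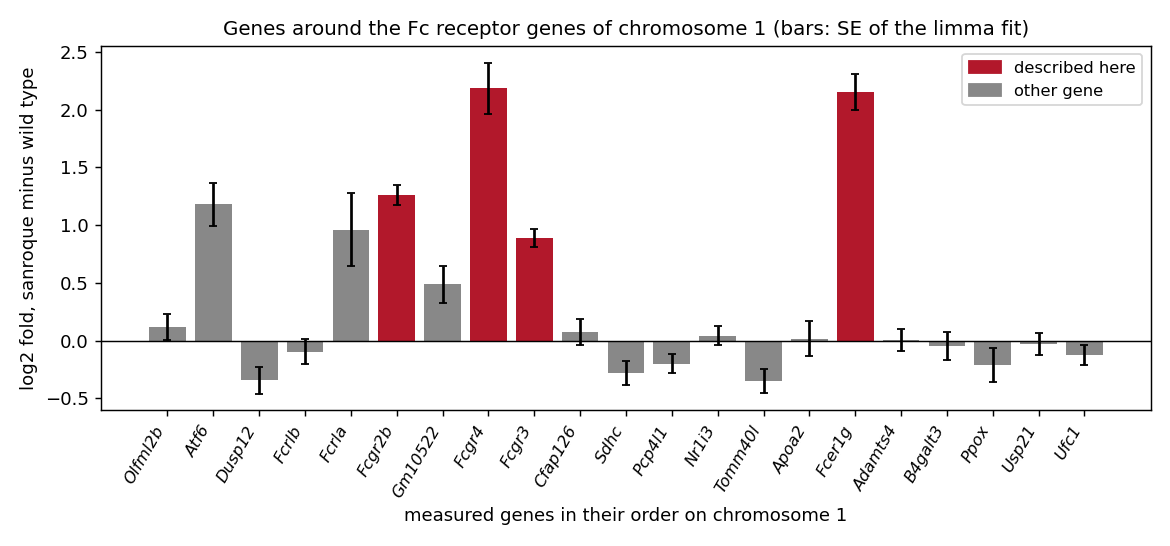
Log2 fold (sanroque minus wild type) of 21 measured genes in their order on chromosome 1, with the SE of the limma fit. The 4 Fc receptor and adaptor genes described here, in red, stand between 0.89 and 2.18, and of the others Atf6 (1.18) alone was called.

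Other Fc receptors and receptors that signal through these adaptors had a lower median fold. Of 24 measured, 7 were called higher and 0 lower, with a median log2 fold of 0.48. The 4 largest among the called were Klrc2 (1.90 ± 0.16 SE), an activating NKG2 receptor that uses TYROBP, Clec5a (1.12 ± 0.13), a myeloid receptor that uses it too, and the C-type lectin genes Clec4d (1.07 ± 0.19) and Clec4e (1.00 ± 0.08), which signal through the FcR gamma chain. Clec4e read 5.47, 5.59 and 5.41 in sanroque, against 4.47, 4.58 and 4.43 in wild type. Hcst, the gene of the third adaptor DAP10, read 7.81, 7.78 and 7.89 in sanroque and 7.87, 7.82 and 7.81 in wild type, and its receptor gene Klrk1 had a log2 fold of 1.17 ± 0.34 SE and was not called (limma adjusted p = 0.0995). Calls in this list numbered 3 without sanroque replicate 2 or wild type replicate 1 and 4 without wild type replicate 3.

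Of 24 measured kinases, phosphatases and scaffolds downstream of ITAM and ITIM receptors, 7 were called higher and 1 lower, with a median log2 fold of 0.37. Syk, the kinase that binds phosphorylated ITAMs, read 8.12, 7.82 and 8.40 in sanroque, against 6.11, 6.88 and 6.35 in wild type (log2 fold 1.67 ± 0.22 SE, limma adjusted p = 0.00985). Pik3ap1 (2.15 ± 0.20) and Blnk (1.52 ± 0.24), adaptors of B and myeloid cells, and Plcg2 (1.69 ± 0.14), a phospholipase below SYK, were higher too. The one lower gene was Lat, the scaffold of the T cell receptor, with a log2 fold of -0.41 ± 0.07 SE (limma adjusted p = 0.0238). Inpp5d, which encodes SHIP1, had 0.51 ± 0.13 SE with separate groups but was not called (limma adjusted p = 0.0676). Without wild type replicate 1 the higher count was 4, and Lat did not pass without any one of sanroque replicates 1 and 2 and wild type replicates 1 and 3.

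Of 33 other measured monocyte and macrophage genes, 19 were called higher and 0 lower, and their median log2 fold was 0.94. Cybb, a subunit of the phagocyte oxidase, had 3.37 ± 0.41 SE, and Mpeg1, a pore-forming macrophage protein, 2.90 ± 0.42. Chil3, a chitinase-like gene, had 3.05 ± 0.31, and Cx3cr1, a chemokine receptor gene shared by monocytes and effector T cells, had 3.13 ± 0.27. Cybb read 10.15, 10.24 and 10.28 in sanroque, against 6.20, 7.92 and 6.44 in wild type. As with Lyz2, the sanroque arrays were close together and wild type replicate 2 was high. Genes of tissue macrophages differed among themselves. Adgre1, which encodes F4/80, read 5.91, 5.85 and 6.11 in sanroque, against 4.71, 4.77 and 4.73 in wild type (log2 fold 1.22 ± 0.08 SE, limma adjusted p = 0.00176), and the complement gene C1qb was called with 0.98 ± 0.15. C1qa and C1qc had log2 folds of 0.50 and 1.06 with separate groups but were not called (limma adjusted p = 0.104 and 0.0895). Msr1 had 0.31 with separate groups and was not called, nor were Mrc1, Marco and Cd163, with log2 folds of 0.15, 0.06 and -0.05. The list's calls numbered 11 without wild type replicate 1 and 13 without both arrays that stood apart. Its summed intensity was 9712 to 10347 in sanroque against 5194 to 6002 in wild type. Ctss was the brightest of the list and weighs most in this sum. Its mean log2 was 11.48 in sanroque and 11.50 in wild type, a log2 fold of -0.03. Of 15 transcription factor genes of the myeloid lineage 4 were called higher and 0 lower, with a median of 0.25. They were Zeb2 (2.18 ± 0.19), Spi1 (1.69 ± 0.19), Irf8 (1.52 ± 0.18) and Cebpb (0.66 ± 0.10). The 11 others ran from -0.02 for Nr1h3 to 0.72 for Irf5, with Cebpa, Cebpd and Klf4 at 0.04, 0.03 and 0.01.

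Spi1, the gene of PU.1, read 7.17, 6.51 and 7.06 in sanroque, against 4.95, 5.38 and 5.32 in wild type (limma adjusted p = 0.00538). PU.1 binding was not measured, and a link between Spi1 and the letters in capitals above was not tested.

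Markers of other cells moved on the same arrays, and their part in these results was not tested. Of 16 neutrophil genes 13 were called higher and 0 lower, with a median log2 fold of 2.38 and a summed intensity of 6359 to 11625 in sanroque against 849 to 1289 in wild type. Ngp (4.12), S100a8 (4.07), Lcn2 (4.06) and S100a9 (3.94), granule and cytosol proteins of neutrophils, led them. Of 12 B cell genes 8 were called higher and 0 lower, with a median of 1.66 and a summed intensity of 7631 to 9463 in sanroque against 2077 to 4996 in wild type. Ms4a1 (2.24), Cd74 (2.08), Ebf1 (1.84) and Cd22 (1.81) led these, but limma called 0 when wild type replicate 1 was left out, 1 when any sanroque array or wild type replicate 3 was, and 11 when wild type replicate 2 was. Intensities have a floor above 0, so no marker could read as absent.

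Lists of other lymphoid, myeloid and erythroid cells had 0 to 3 genes called. Of 8 NK cell genes Eomes (1.29) and Klre1 (0.83) were called higher, and the list median log2 fold was 0.13. The others had log2 folds of 0.94 (Klrb1c, with separate groups), 0.21 (Klra8), 0.06 (Itga2), 0.01 (Klri1), -0.01 (Klri2) and -0.12 (Ncr1). The summed intensity was 768 to 1135 in sanroque against 414 to 494 in wild type. Eomes was the brightest of the 8, at a mean log2 of 9.48 in sanroque and 8.20 in wild type, and weighs most in this sum. Neither Eomes nor Klre1 passed without both arrays that stood apart. Klre1 alone passed without wild type replicate 1, while 3 genes were called without sanroque replicate 3. Of 10 dendritic cell genes Itgax alone was called (1.96), and the list median log2 fold was 0.06. The sums overlapped at 2698 to 3195 in sanroque against 2777 to 3199 in wild type. Ccr9 and Cst3 were the brightest of the 10 and weigh most in these sums. Their log2 folds were -0.64 and 0.36, each with separate groups, and neither was called, so the sums say little about the other genes. Itgax was not called without wild type replicate 1 or 2. Of 9 mast cell, basophil and eosinophil genes Hdc alone was called (1.45), and the list median log2 fold was 0.05. Hdc was the brightest of these genes and weighs most in the list's sum, which was 408 to 466 in sanroque against 259 to 283 in wild type. Fcer1a and Ms4a2, which form the high-affinity IgE receptor with the FcR gamma chain, read below 4 on every array. In the CD4 T cell list 3 of 6 were called higher, namely Ikzf2 (1.07), Zbtb7b (0.80) and Ctla4 (2.13), with a sum of 723 to 1082 in sanroque against 393 to 439 in wild type. All 6 had separate groups, higher in sanroque, and their median log2 fold was 0.88. None of these passed without wild type replicate 1 or 3, and 1 passed without sanroque replicate 1 or wild type replicate 2. None of 5 erythroid and platelet genes was called by limma, with log2 folds of 0.25 for Alas2 and -0.09 for Itga2b and sums of 170 to 192 in sanroque against 168 to 189 in wild type. When sanroque replicate 3 was left out, 2 mast cell, basophil and eosinophil genes and 1 erythroid and platelet gene were called higher. No list in this paragraph had a gene called lower.

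The sanroque array on which each gene read highest was counted for the described genes and for other lists. Among the 3 sanroque arrays, 15 of 16 neutrophil genes were highest on replicate 1, and 1 of the 10 described genes was, namely Fcer1g. Over all genes the shares highest on sanroque replicates 1 to 3 were 34.3%, 32.04% and 33.66%. Of the 10, 5 were highest on sanroque replicate 3 and 4 on replicate 2, but 6 were lowest on replicate 2, 3 on replicate 1 and 1 on replicate 3. Some of these differences were small, as for Lyz2 at 10.71, 10.79 and 10.71. Of the 33 other monocyte and macrophage genes, 8, 11 and 14 were highest on sanroque replicates 1 to 3. Of 12 B cell genes, 5 were highest on sanroque replicate 1, 0 on replicate 2 and 7 on replicate 3. Ngp, for example, read 11.32, 10.76 and 10.38 in sanroque replicates 1 to 3. Among the wild-type arrays, 8 of the 10, 10 of 16 neutrophil genes and 12 of 12 B cell genes were highest on replicate 2, as were 28.3% of all genes. Genes on 1 array share its RNA, so these counts describe the arrays and are not tests.

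**Figure D5:**
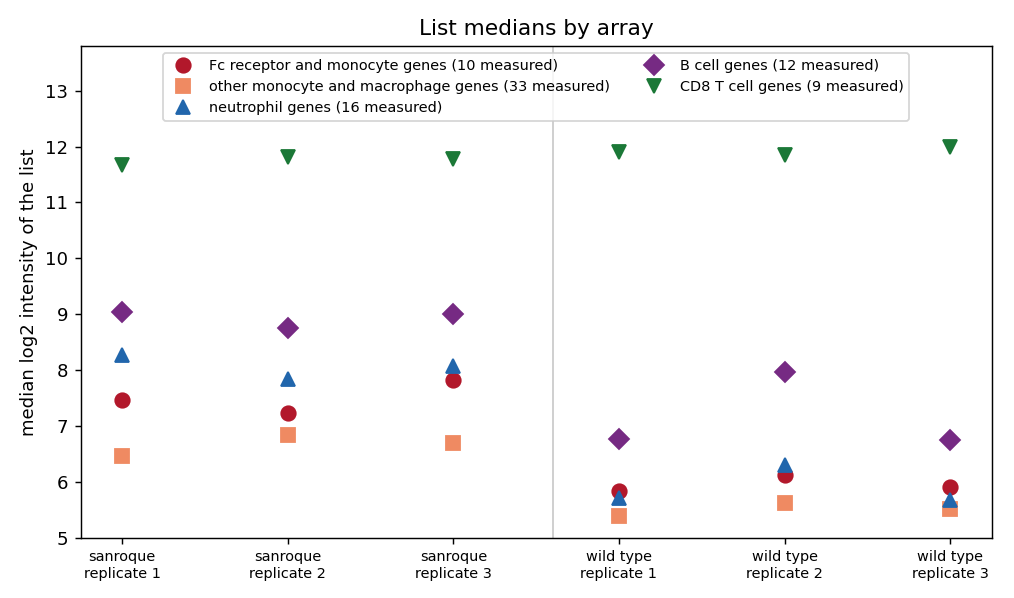
Median log2 intensity of 5 gene lists on each array, sanroque replicates left and wild-type replicates right. The described genes (7.47, 7.23 and 7.82 in sanroque, 5.84, 6.12 and 5.91 in wild type) lie higher in sanroque, as do the monocyte, neutrophil and B cell lists, while the CD8 T cell medians are 11.67, 11.81 and 11.78 in sanroque and 11.90, 11.85 and 12.00 in wild type, lower on each sanroque array.

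The profile of the 10 genes over the 6 arrays, each gene centred on its mean and then averaged, was 0.72, 0.63 and 0.84 in sanroque and -0.80, -0.50 and -0.88 in wild type. Ranked by root mean square distance to it over 6 arrays, the nearest named genes outside the list were Map3k5 (0.09), Slpi (0.12), Plcg2 (0.15), Slc9a7 (0.15) and Tgfbi (0.15). Map3k5 encodes a stress-activated kinase, Slpi a secreted protease inhibitor of phagocytes and epithelia, Slc9a7 a sodium-proton exchanger and Tgfbi an extracellular matrix protein also made by macrophages. Map3k5 read 9.30, 9.45 and 9.47 in sanroque, against 7.97, 8.25 and 7.93 in wild type. The ranking selects genes with this contrast and gives no test.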

How the data were processed

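For each probe set and array the authors deposited an intensity on a linear scale (9.562 to 31996), measured on cRNA labelled with biotin, per the labels' protocols. The submitters' processing notes list Partek without its role. How the background was corrected and the arrays normalized is not given in the sources used here, and the linear scale was inferred from the values. Array medians ran from 53.6 to 56.9, so log2 was taken directly. Precision is limited by the number of arrays, and the labels do not say how many mice gave each sample.

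Of 35399 probe sets, 21789 were annotated with 1 symbol by the platform's table, 1621 with several and 11989 with none. Symbols were updated through the RefSeq gene table of GRCm38.p6, which matched 19856 of 19938 genes. The probe set with the highest mean was kept where a gene had several.

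All 19938 genes were fitted with limma 3.58.1 (R 4.3.3), sanroque minus wild type, two-sided, with no filter, with a Benjamini-Hochberg threshold of 0.05 across the table. The script was tested on simulated data. The genes and lists were chosen with earlier results of these data known. Named genes were the 10, checks (Rc3h1, Cd44, Cd8a, Cd3e, Xist), in each list the 4 called genes of largest fold or the 2 of smallest p where none was called, and the 5 nearest profiles. Others were named after their values were seen. Cd3e had a log2 fold of -0.04. Alternatives covered normalization, an added 16, probe sets, a filter at a mean log2 of 6, variance models, the replicate number as a block, a 1.5-fold minimum and arrays left out. The 7 of 10 genes with a RefSeq promoter window were Fcgr1, Fcgr3, Fcgr4, Fcgr2b, Fcer1g, Cd68 and Lyz2. Figures were drawn with matplotlib 3.10.9.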

Additional observations from a re-analysis of the deposited data

How the results depend on the processing

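All 10 genes kept the direction of their log2 fold under every alternative in which they were fitted. Of 168 such values, 4 fell on the other side of the threshold: Tyrobp with the replicate block (1.29, limma adjusted p = 0.0548), without wild type replicate 1 and without both arrays that stood apart, and Csf1r without wild type replicate 1. Fcgr1 and Cd14 were not fitted under the filter at a mean log2 of 6. The count of 9 higher was 7 to 9 when 1 array was left out, 8 without both arrays that stood apart, 8 under the filter and 8 with the replicate block. Array numbers did not pair the samples (correlations of deviations -0.05, -0.16 and -0.36). The 5 within-array changes kept their sign with 16 added, with the mean of probe sets and with arrays left out.

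Over all genes, 650 higher and 501 lower calls became 1998 and 2735 with array weights, 271 and 30 with the replicate block, and 326 and 27 without both arrays that stood apart. Leaving out 1 array gave 196 to 587 higher and 22 to 728 lower, the lowest without wild type replicate 1. A 1.5-fold minimum left 133 lower. Some checks changed sign: Rc3h1 to -0.0488 (mean of probe sets) and -0.24 (probe set of largest variance), Cd3e to 0.0068 without wild type replicate 1 (range -0.075 to 0.0068 when 1 array was left out), and the Xist log2 fold to -0.0015 without both arrays, which leaves out the one array where it was high (0.0455 without sanroque replicate 1 alone). The cause of the other shifts was not tested. Most wild-type values of the Fc gamma receptor genes, and all values of Cd14 in both genotypes, were below the array medians. Whether this limits their folds was not tested.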
